A study of Mus musculus with 180 samples.

Results

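Tofacitinib, a clinical kinase inhibitor (CKI) designed against the JAK kinases, was compared with the vehicle DMSO in LPS-stimulated macrophages, by taking the 3 samples labelled Tofacitinib and all 6 samples labelled DMSO out of 180 RNA-seq samples. The cells were wild type bone marrow-derived macrophages (BMDM), grown in culture from the marrow of young adult male C57/BL6 mice. Every sample, the DMSO controls included, received LPS at 10 ng/ml for 2 h, so no unstimulated state was part of the comparison. The inhibitor or the vehicle was given 1 h before LPS. The labels divide DMSO into set 1 and set 2, with replicates 1 to 3 in each, without saying which of the 58 CKIs belong to which set. Tofacitinib was used at a single concentration, which was not chosen by its binding to a JAK. The methods describe 3 independent biological replicates without saying which animals they came from. The p-values for genes below rest on the spread between replicates within all 59 groups (58 CKIs and DMSO), unless a smaller fit is named. Those of exact tests rest on the 9 samples. The values are read counts over the exons of a gene that the authors scaled between samples, called normalized read counts here. Of 45070 genes, 12714 had a mean of at least 10 over all samples and were tested.

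LPS binds TLR4 and switches on NF-kB, AP-1 and IRF3, which induce chemokines, cytokines and interferon beta within a short time. Secreted interferon beta then binds its receptor IFNAR, whose kinases JAK1 and TYK2 phosphorylate STAT factors, which switch on interferon-stimulated genes. Other cytokines that macrophages make or receive, such as IL-10 and IL-6, signal through JAK1, JAK2 or TYK2 to STAT3. JAK3 works with the receptors that share the common gamma chain.

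The 9 libraries carried macrophage markers and differed in composition between the groups. The receptor gene *Csf1r*, which binds the macrophage growth factor, was at 26861, 24917 and 25404 with Tofacitinib and at 24416 to 25418 in DMSO, and *Adgre1*, which encodes F4/80, was at 11072, 10458 and 9263 against 5747 to 10541. The 8 macrophage marker genes summed to 201012, 167946 and 121238 with Tofacitinib against 82188 to 185832 (two-sided exact permutation test over 84 splits, p = 0.107). Of these 8, *Mertk* was lower with Tofacitinib (95 to 122 against 148 to 203), and 7 had a Log2FC above 0, as did 8465 of all 12714 genes tested. The T cell receptor gene *Cd3e* was at no more than 1 in any of the 9. Mitochondrially encoded genes made up 1.93%, 1.51% and 0.744% of the total with Tofacitinib and 0.301% to 1.05% with DMSO (two-sided exact permutation test over 84 splits, p = 0.0238). The 10 neutrophil marker genes summed to 1951, 1409 and 700 against 303 to 1021 (p = 0.0238, same exact test), although *Ly6g*, which defines mature neutrophils, was at 0 in all 3 Tofacitinib samples and reached 1 in DMSO. The 8 dendritic cell markers summed to 103 to 148 against 68 to 103 (p = 0.0238, same exact test), most of it from *Xcr1*, while *Flt3*, *Zbtb46* and *Clec9a* were each at 20 or less in every sample. DMSO set 2 replicate 1 was the DMSO sample nearest to Tofacitinib in mitochondrial share and neutrophil markers. What part these differences have in the results below was not tested beyond the fit that carries the mitochondrial share as a covariate. In bulk RNA, fewer cells of a type and less RNA per cell cannot be told apart.

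**Figure D1:**
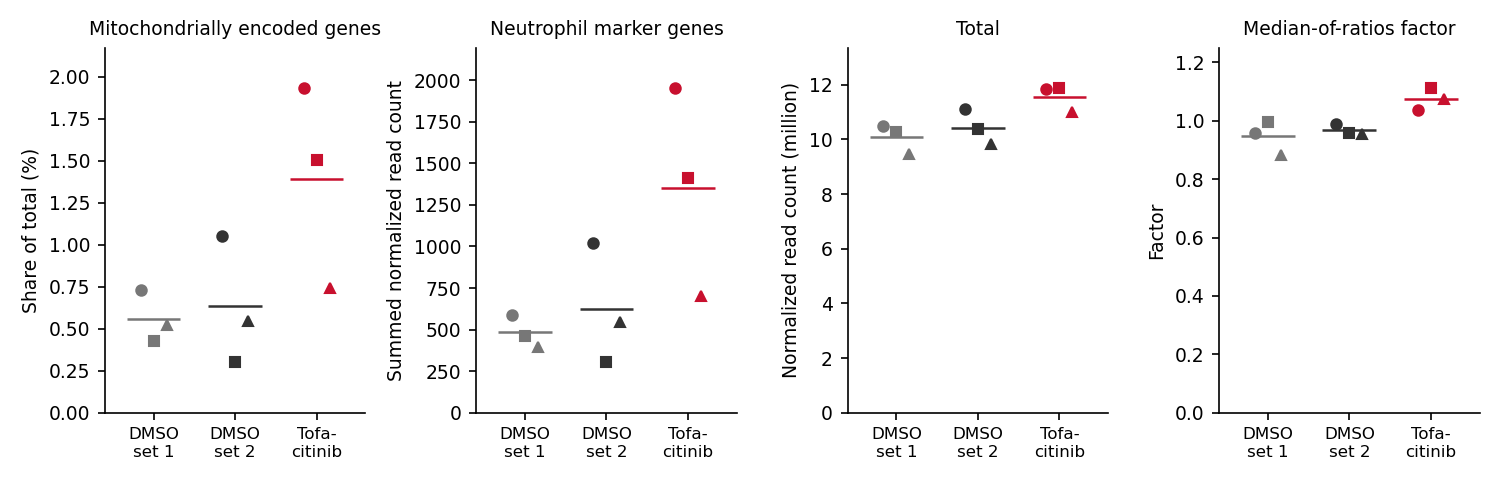
Each point is 1 sample (circle, square and triangle for replicates 1, 2 and 3), and each line is the mean of 3 samples. From left to right the panels show the share of mitochondrially encoded genes in percent, the summed normalized read count of 10 neutrophil marker genes, the total of the normalized read counts and the median-of-ratios factor, and in the last panel all 3 Tofacitinib samples lie above the 6 DMSO samples.

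The libraries were of similar depth, but the total and the typical gene were higher with Tofacitinib after the authors' scaling. The estimated number of reads on genes was 12640000, 12360000 and 13960000 with Tofacitinib and 10400000 to 13570000 with DMSO. The normalized totals were 11826918, 11868376 and 10999417 against 9481416 to 11094387 (two-sided exact permutation test, p = 0.0238). The median Log2FC over all genes tested was 0.17. Dividing each sample by its median-of-ratios factor, a second scaling that sets the typical gene equal, brought this median to 0.00699. Results are therefore given on the deposited scale together with the second scaling, and a gene is called when its adjusted p in limma is under 0.05.

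On the deposited scale 1256 of 12714 genes (9.88%) were called between Tofacitinib and DMSO, 1147 of them higher (9.02%) and 109 lower (0.857%). Under median-of-ratios scaling 499 of 12702 genes were called (3.93%) and the split turned, with 167 genes higher (1.31%) and 332 lower (2.61%), so that 91.3% of the calls were higher on the first scale and 33.5% on the second. All 167 and all 109 were called in the same direction on both scales (1.31% and 0.857% of genes). In 1585 genes (12.5%) all 3 Tofacitinib values lay above all 6 DMSO values, and in 234 (1.84%) they lay below, which 796 of the higher and 90 of the lower calls did. The calls also rested on single libraries. Without Tofacitinib replicate 2 only 2 genes were called, *Cxcl1* and *Amotl2*, without DMSO set 2 replicate 2 the count was 170, and without Tofacitinib replicate 1 it was 238. With DMSO set 1 or set 2 as the only controls 162 and 111 genes were called, with the mitochondrial share and the replicate number in the fit 63, and with the 9 samples fitted alone 4. Of 91 called genes that were followed through every setting, 89 lost the call without Tofacitinib replicate 2, 52 each without Tofacitinib replicate 1 or DMSO set 2 replicate 2, and 25 without DMSO set 1 replicate 3, while 0 changed sign in any setting. Apart from *Cxcl1* and *Amotl2*, each call against DMSO on the deposited scale given below was lost without Tofacitinib replicate 2, and the values without it are given for the leading genes. Between DMSO set 1 and set 2, which differ in no treatment, limma called 0 genes at an adjusted p under 0.05 (0.0% of genes, with 310 at an unadjusted p under 0.05 against 3960 for Tofacitinib and DMSO). The count between the sets rests on 3 against 3 samples and that for Tofacitinib on 3 against 6, so the 2 are not of equal power.

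**Figure D2:**
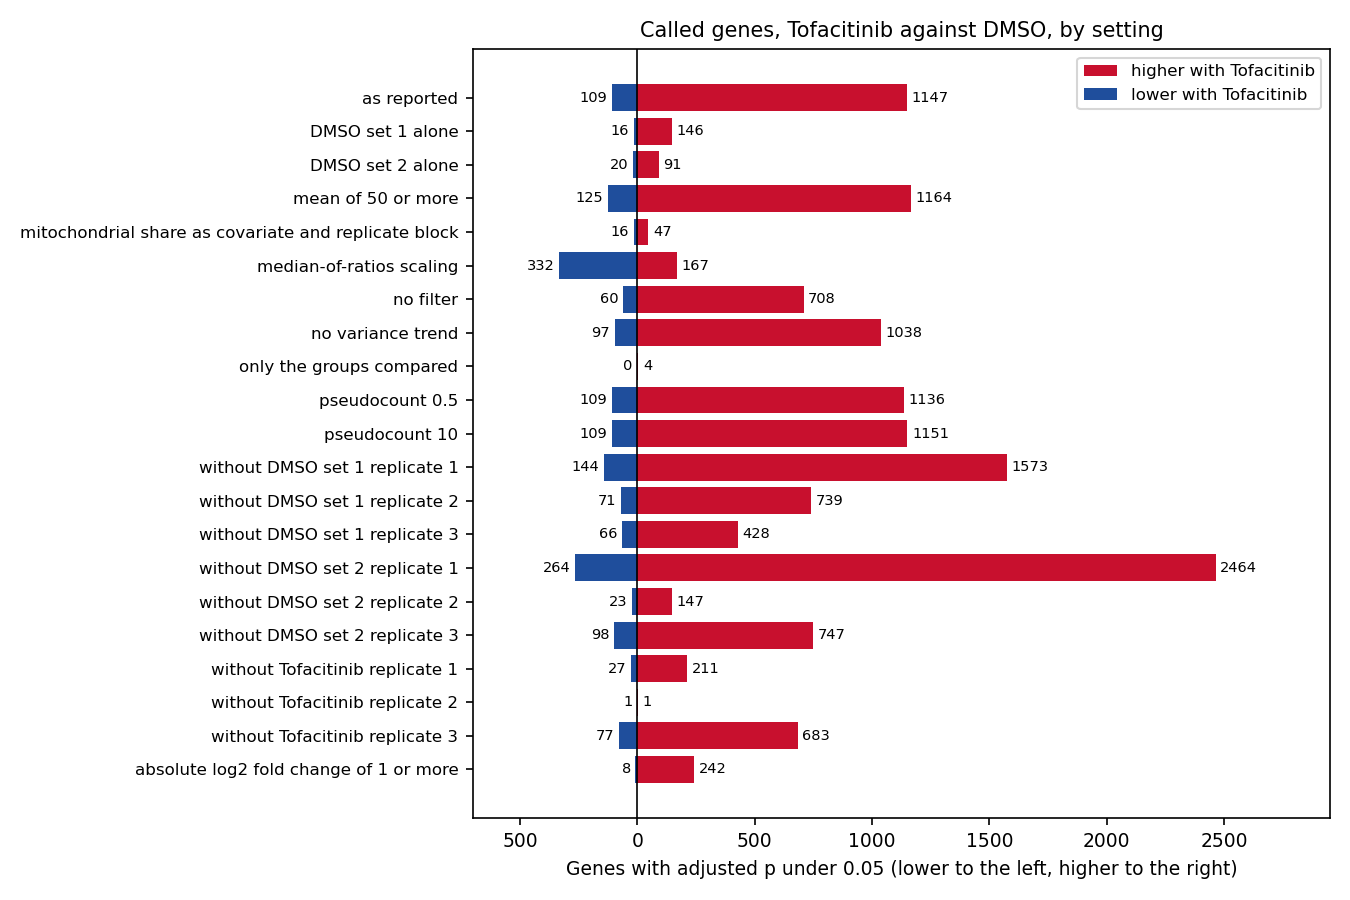
Bars show the number of genes called higher (red, to the right) and lower (blue, to the left) with Tofacitinib against DMSO under each setting shown, with the counts printed at the bar ends. Among these settings the count runs from 2 genes without Tofacitinib replicate 2 to 2728 without DMSO set 2 replicate 1, and the share of lower genes is largest under median-of-ratios scaling.

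The neutrophil-attracting chemokine genes *Cxcl1*, *Cxcl2* and *Cxcl3*, neighbours on chromosome 5 whose products bind CXCR2, were higher with Tofacitinib. *Cxcl1* was at 1490, 2119 and 2383 with Tofacitinib against a lowest value of 622, a median of 646 and a highest of 786 in DMSO (Log2FC 1.53 ± 0.19 (SE), adjusted p = 1.01e-08). Its 3 Tofacitinib values lay far above all 6 DMSO values, which were close to each other. *Cxcl1* was also called in every other setting tried, with a Log2FC of 1.37 (adjusted p = 2.54e-07) under median-of-ratios scaling, 1.39 (adjusted p = 9.80e-08) with the mitochondrial share and the replicate number in the fit, and 1.48 (adjusted p = 1.13e-05) without Tofacitinib replicate 2. *Cxcl3* was at 758, 1138 and 1203 with Tofacitinib, while DMSO ranged from 313 to 607 with a median of 551 (Log2FC 1.05 ± 0.20 (SE), adjusted p = 0.00148). *Cxcl2* was at 2210, 2930 and 3527 with Tofacitinib against a lowest value of 1328, a median of 1734 and a highest of 1842 in DMSO (Log2FC 0.79 ± 0.17 (SE), adjusted p = 0.00433). In both genes the groups did not overlap and Tofacitinib replicate 1 was the lowest of the 3. Both were called under median-of-ratios scaling, at Log2FC 0.88 (adjusted p = 0.00612) and 0.62 (adjusted p = 0.0249), and in 8 of 9 fits that left out 1 sample, the exception being the one without Tofacitinib replicate 2, where the Log2FC was 0.96 (adjusted p = 0.0885) for *Cxcl3* and 0.76 (adjusted p = 0.0978) for *Cxcl2*.

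The sequence just before the start of these 3 genes is shown because they share a motif there. The 250 bases upstream of each start (RefSeq, GRCm38.p6) were searched on both strands for the NF-kB motif GGGANNTTCC, where N is any base, and matches are in capitals. All 3 hold the same match, which begins 71, 97 and 73 bases upstream of the start of *Cxcl1*, *Cxcl2* and *Cxcl3* and overlaps by all but 1 base with a match on the other strand. *Ifnb1*, the interferon beta gene, which is described further on, holds a match 116 bases upstream, with the letters of that other-strand match, and is shown beside them. Of all 32851 such windows 1.21% hold the motif, as do 1.41% of the 9131 windows of tested genes, and of the 133 windows found for genes called higher under both scalings 6 do (4.51%), those of *Cxcl1*, *Cxcl2*, *Cxcl3*, *Ifnb1*, *Rpusd2* and *Slc6a12*. Of the 85 windows of genes called lower under both scalings 0 hold it. The windows of *Nfkbia*, *Il6* and *Cxcl10*, which were not called and are described further on, hold it too. A match is a description of the letters and says nothing about binding.
Cxcl1 (chr5:90890995-90891244, plus strand): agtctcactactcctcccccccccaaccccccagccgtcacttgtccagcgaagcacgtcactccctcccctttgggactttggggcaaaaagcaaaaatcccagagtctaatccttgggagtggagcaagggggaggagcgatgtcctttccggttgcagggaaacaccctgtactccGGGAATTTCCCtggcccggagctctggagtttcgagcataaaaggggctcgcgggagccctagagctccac
Cxcl2 (chr5:90903649-90903898, plus strand): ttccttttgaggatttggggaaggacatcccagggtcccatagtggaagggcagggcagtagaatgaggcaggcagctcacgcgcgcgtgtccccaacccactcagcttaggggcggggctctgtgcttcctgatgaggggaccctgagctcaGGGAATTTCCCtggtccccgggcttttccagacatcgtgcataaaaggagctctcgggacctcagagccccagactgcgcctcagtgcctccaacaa
Cxcl3 (chr5:90785851-90786100, plus strand): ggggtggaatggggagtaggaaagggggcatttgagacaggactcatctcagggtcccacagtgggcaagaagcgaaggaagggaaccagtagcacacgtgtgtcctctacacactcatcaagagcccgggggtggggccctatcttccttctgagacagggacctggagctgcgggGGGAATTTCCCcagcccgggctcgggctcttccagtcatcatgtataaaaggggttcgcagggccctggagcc
Ifnb1 (chr4:88522795-88523044, minus strand): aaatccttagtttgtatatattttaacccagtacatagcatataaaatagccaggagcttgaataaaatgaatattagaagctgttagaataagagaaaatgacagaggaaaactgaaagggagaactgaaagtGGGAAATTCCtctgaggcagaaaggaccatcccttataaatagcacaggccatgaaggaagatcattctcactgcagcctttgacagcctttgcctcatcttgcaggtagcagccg

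Other chemokine genes were called higher as well. Of 22 chemokine and chemokine receptor genes tested, 11 were called higher and 0 lower on the deposited scale, 6 and 0 under median-of-ratios scaling, and 1 without Tofacitinib replicate 2, with a median Log2FC of 0.94 and 0.78 on the 2 scales against 0.17 and 0.00699 for all genes. Of all genes, 9.02% and 1.31% were called higher on the 2 scales. The 6 chemokine genes that held on both scales were *Cxcl1*, *Cxcl2*, *Cxcl3*, *Ccl2*, *Ccl7* and *Ccl22*. *Ccl22*, whose product attracts T cells through CCR4, was at 674, 1192 and 1077 with Tofacitinib, while DMSO ranged from 243 to 443 with a median of 385 (Log2FC 1.42 ± 0.32 (SE), adjusted p = 0.00672). Every Tofacitinib value was above every DMSO value. *Ccl17*, the other CCR4 ligand, was a low gene at 42, 101 and 78 with Tofacitinib against a lowest value of 8, a median of 20 and a highest of 24 in DMSO (Log2FC 2.03, adjusted p = 0.0303), and its call was lost under median-of-ratios scaling, where adjusted p was 0.0512. The monocyte-attracting genes *Ccl7* and *Ccl2*, whose products bind CCR2, had Log2FC 1.29 (adjusted p = 0.00497) and 0.62 (adjusted p = 0.00148). *Ccl2* values were 10450, 12355 and 12695 with Tofacitinib and 6977 to 8431 in DMSO, so the groups did not overlap. The receptor genes *Ccr2*, *Ccr7*, *Cx3cr1* and *Cxcr4* were called on the deposited scale and not under the second scaling. Several abundant chemokine genes did not pass: *Ccl4* had Log2FC 0.25 (adjusted p = 0.404) and *Ccl3* 1.18 (adjusted p = 0.0659), both with values that overlapped those of DMSO. With the mitochondrial share and replicate number in the fit, 5 of the 22 were called, and the Log2FC of *Ccl22* was 0.78 (adjusted p = 0.124).

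**Figure D3:**
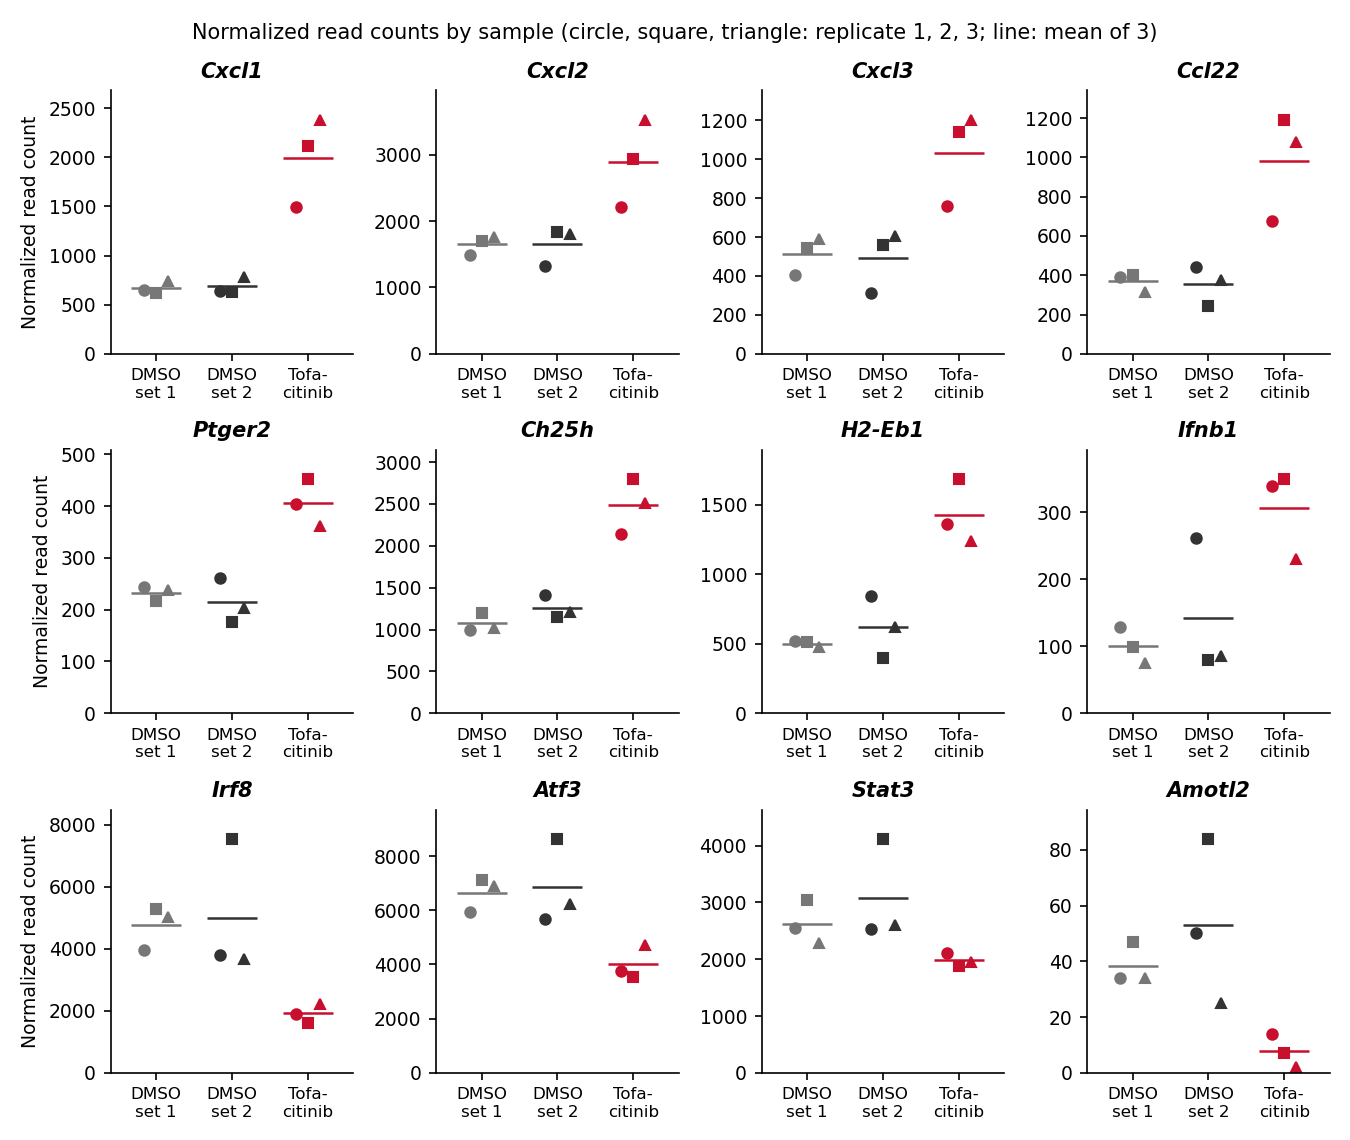
Normalized read counts of 12 genes, 1 point per sample (circle, square and triangle for replicates 1, 2 and 3), grouped as DMSO set 1, DMSO set 2 and Tofacitinib, with the mean of 3 samples as a line. In the upper row and for Ptger2, Ch25h and H2-Eb1 all 3 Tofacitinib points lie above all DMSO points, for Irf8, Atf3, Stat3 and Amotl2 they lie below, and for Ifnb1 DMSO set 2 replicate 1 lies within the Tofacitinib range.

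Inflammatory cytokine genes were partly higher. Of 22 tested, 6 were called higher and 0 lower on the deposited scale, 2 and 0 under median-of-ratios scaling and 0 without Tofacitinib replicate 2, with a median Log2FC of 0.50 and 0.34 on the 2 scales. For all genes the shares called higher were 9.02% and 1.31%. The 2 cytokine genes that held were *Il1a* and *Pdgfb*, a growth factor for mesenchymal cells. *Il1a*, which encodes interleukin-1 alpha, was at 1001, 1373 and 656 with Tofacitinib, while DMSO ranged from 237 to 627 with a median of 350.5 (Log2FC 1.45 ± 0.41 (SE), adjusted p = 0.0213). The lowest Tofacitinib value lay just above the highest DMSO value. *Pdgfb* was at 169, 272 and 240 with Tofacitinib against a lowest value of 69, a median of 124 and a highest of 129 in DMSO (Log2FC 1.02 ± 0.23 (SE), adjusted p = 0.00761). *Tnf*, an early product of the LPS response, was at 13424, 18956 and 16354 with Tofacitinib, while DMSO ranged from 6668 to 8932 with a median of 7597 (Log2FC 1.06 ± 0.31 (SE), adjusted p = 0.0254). The groups did not overlap, but under the second scaling the call was narrowly missed (Log2FC 0.89, adjusted p = 0.0519). *Il1b*, *Ebi3*, a subunit of IL-27, and *Il12b*, the subunit common to IL-12 and IL-23, were called on the deposited scale only, with Log2FC 1.23, 0.95 and 0.91. *Il6* had Log2FC 0.48 (adjusted p = 0.472) and *Il10*, which encodes an anti-inflammatory cytokine that signals through JAK1 and TYK2, 0.79 (adjusted p = 0.206), and neither passed.

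*Ptger2*, *Ptgir* and *Ch25h*, which act on or make lipid mediators, were called higher on both scales and are described as single genes, not as a list. *Ptger2*, the receptor EP2 for prostaglandin E2, was at 405, 452 and 362 with Tofacitinib against a lowest value of 177, a median of 227 and a highest of 262 in DMSO (Log2FC 0.87 ± 0.16 (SE), adjusted p = 5.28e-04). *Ptgir*, the prostacyclin receptor, was at 137, 164 and 176 with Tofacitinib, while DMSO ranged from 59 to 105 with a median of 69.5 (Log2FC 1.13 ± 0.26 (SE), adjusted p = 0.00683). *Ch25h*, which makes 25-hydroxycholesterol, was at 2144, 2795 and 2508 with Tofacitinib against a lowest value of 998, a median of 1178 and a highest of 1408 in DMSO (Log2FC 1.09 ± 0.24 (SE), adjusted p = 0.00497). None of the 3 overlapped with DMSO, and each was called under median-of-ratios scaling with adjusted p of 0.00229, 0.0163 and 0.0105. *Gpr183*, a receptor for oxysterols derived from 25-hydroxycholesterol, had Log2FC 1.59 (adjusted p = 0.00366), and *Gpr84*, a receptor for medium-chain fatty acids, 0.91 (adjusted p = 0.018). Without Tofacitinib replicate 2 none of these 5 was called, with Log2FC of 0.79 for *Ptger2* (adjusted p = 0.0678) and 1.00 for *Ch25h* (adjusted p = 0.137). With the mitochondrial share and replicate number in the fit *Ptger2* kept the call and the other 4 lost it, and *Ptgir*, *Ch25h* and *Gpr84* also lost it with DMSO set 2 as the only control. *Ptgs2*, the inducible cyclooxygenase, had Log2FC 0.19 (adjusted p = 0.728). Among 25 inflammatory enzyme and acute-phase genes, 5 were called higher and 1 lower, and 2 and 1 under the second scaling. Over all genes 9.02% were called higher and 0.857% lower, and 1.31% and 2.61% under the second scaling. The matrix protease *Mmp12* was higher on both scales (Log2FC 1.25 and 1.08), and *F3*, the tissue factor that starts coagulation, was lower on both, at 53, 52 and 71 with Tofacitinib, while DMSO ranged from 85 to 151 with a median of 116 (Log2FC -1.01 ± 0.32 (SE), adjusted p = 0.0381).

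Some genes of myeloid surface receptors were called, and they are described singly, not as a list. *Trem1*, a receptor that amplifies inflammatory signals, was at 138, 146 and 110 with Tofacitinib against a lowest value of 25, a median of 50 and a highest of 57 in DMSO (Log2FC 1.50 ± 0.29 (SE), adjusted p = 9.90e-04). *Clec5a*, a C-type lectin that like TREM1 signals through DAP12, was at 1430, 1439 and 960 against 330 to 830 (Log2FC 1.25, adjusted p = 0.00968). *Siglece*, an inhibitory receptor for sialic acids, was a low gene at 54, 64 and 55 against 18 to 40 (Log2FC 1.13, adjusted p = 0.00245). All 3 were called under median-of-ratios scaling and with the mitochondrial share in the fit, and all 3 were lost without Tofacitinib replicate 2 and in the fit of the 9 samples alone. *Clec5a* was also lost without Tofacitinib replicate 1 and with DMSO set 2 as the only control. The summed neutrophil markers were higher in the same samples, as given above. In the opposite direction, *Mertk*, the receptor with which macrophages engulf dying cells, was at 122, 114 and 95 with Tofacitinib, while DMSO ranged from 148 to 203 with a median of 174 (Log2FC -0.65 ± 0.17 (SE), adjusted p = 0.0138). All Tofacitinib values were below all DMSO values. The LPS co-receptor gene *Cd14* had Log2FC 0.69 (adjusted p = 0.0451) and 0.52 (adjusted p = 0.133) on the second scale.

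Genes of MHC class II, which presents peptides to CD4+ T cells, included several that were higher on both scales. Of 13 tested, 7 were called higher and 0 lower on the deposited scale, 4 and 0 under median-of-ratios scaling and 0 without Tofacitinib replicate 2. All 13 had a Log2FC above 0 on both scales (median 1.01 and 0.84), as did 8465 of 12714 and 6431 of 12702 of all genes on the 2 scales. Over all genes, 9.02% and 1.31% were called higher on the 2 scales. The beta chain gene *H2-Eb1* was at 1359, 1683 and 1238 with Tofacitinib against a lowest value of 395, a median of 516 and a highest of 846 in DMSO (Log2FC 1.38 ± 0.32 (SE), adjusted p = 0.00789). *H2-Ab1* was at 1982, 2142 and 2298 with Tofacitinib, while DMSO ranged from 700 to 1530 with a median of 1027 (Log2FC 1.08, adjusted p = 0.0121). In both genes all Tofacitinib values lay above all DMSO values. *H2-Aa* and *H2-DMb2* also held on both scales, with Log2FC 1.23 and 1.23 on the deposited one. *Ciita*, the transactivator of these genes, and *Cd74*, the invariant chain, were called on the deposited scale only (Log2FC 0.71 and 0.80). Reads of close copies such as *H2-DMb1* and *H2-DMb2* may have been split between them by the counting. In the same samples the summed dendritic cell markers were higher, as given above, and with the mitochondrial share and replicate number in the fit 0 of the 13 were called, with a median Log2FC of 0.48 against 0.10 for all genes. Their part in these values was not tested. Of 22 MHC class I presentation genes 0 were called higher, and 1 was lower on the deposited scale and 2 on the second (median 0.040 and -0.13). The shares of all genes called lower were 0.857% and 2.61%. *Tap1*, the peptide transporter, was lower on both (Log2FC -0.75, adjusted p = 0.0236).

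*Ifnb1* was higher with Tofacitinib, and most interferon-stimulated genes were not called. *Ifnb1* was at 339, 349 and 230 with Tofacitinib against a lowest value of 75, a median of 92.5 and a highest of 262 in DMSO (Log2FC 1.45 ± 0.40 (SE), adjusted p = 0.0199). DMSO set 2 replicate 1, at 262, lay above Tofacitinib replicate 3, and the other 5 DMSO values were at 129 or less. Under median-of-ratios scaling the Log2FC was 1.28 (adjusted p = 0.0377), with the mitochondrial share and replicate number in the fit 0.69 (adjusted p = 0.233), and the call was lost without DMSO set 2 replicate 2 or either of Tofacitinib replicates 1 and 2. Of 58 antiviral effector genes tested, 0 were called higher and 2 lower, with 41 above 0 on the deposited scale and 34 under median-of-ratios scaling. Over all genes 8465 of 12714 and 6431 of 12702 were above 0 on the 2 scales. Without DMSO set 2 replicate 1 the numbers called higher and lower were 9 and 2. That fit called 2728 of 12714 genes in either direction, against 1256 with every sample. Over all genes, with every sample in the fit, 9.02% were called higher and 0.857% lower on the deposited scale. None of the 18 interferon-induced GTPase genes and none of the 18 interferon-induced sensor and IFI200 genes was called on either scale. *Isg15*, a ubiquitin-like modifier, was at 5364, 5571 and 2714 with Tofacitinib, while DMSO ranged from 1096 to 3901 with a median of 1672 (Log2FC 1.26 ± 0.51 (SE), adjusted p = 0.0836). *Mx1*, an antiviral GTPase, was at 1708, 1916 and 2217 with Tofacitinib against a lowest value of 936, a median of 2446 and a highest of 3697 in DMSO (Log2FC -0.13 ± 0.39 (SE), adjusted p = 0.856). In both genes the spread in DMSO was wider than the difference between the groups, and the signs of their Log2FC were opposite. *Cxcl10* and *Rsad2* also did not pass, at Log2FC 0.42 (adjusted p = 0.338) and -0.47 (adjusted p = 0.251). The effectors called lower were *Cmpk2*, a mitochondrial nucleotide kinase, and *Samhd1*, which breaks down deoxynucleotides. *Cmpk2* was at 6946, 5290 and 9915 with Tofacitinib, while DMSO ranged from 10614 to 36530 with a median of 12808 (Log2FC -1.13 ± 0.39 (SE), adjusted p = 0.0473), and all 3 Tofacitinib values lay below the DMSO range.

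Among interferon-induced genes for ubiquitin ligases and for PARP and TRIM proteins, 0 of 24 were called higher and 3 lower on the deposited scale. Under median-of-ratios scaling the numbers were 0 and 4. The shares of all genes called lower were 0.857% and 2.61% on the 2 scales. The 3 lower on the deposited scale were *Trim14*, which acts in antiviral signalling, *Trim26* and *Rnf114*, both ubiquitin ligases, with Log2FC -0.68, -0.48 and -0.60. *Rnf114* was at 1851, 1796 and 2215 against 2558 to 3813. None of the 3 was called without Tofacitinib replicate 2 or without replicate 1.

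The genes of the JAK-STAT pathway itself that were called on either scale were lower with Tofacitinib. None of the 4 JAK family genes was called on either scale. *Jak3*, which encodes the JAK that Tofacitinib is designated to prefer, was at 302, 307 and 307 with Tofacitinib against a lowest value of 293, a median of 356 and a highest of 522 in DMSO (Log2FC -0.30 ± 0.16 (SE), adjusted p = 0.189), and *Jak1*, *Jak2* and *Tyk2* had Log2FC -0.18, 0.40 and -0.10. *Stat3*, the factor downstream of IL-6 and IL-10, was called on the deposited scale, at 2115, 1888 and 1957 with Tofacitinib, while DMSO ranged from 2293 to 4123 with a median of 2574 (Log2FC -0.50 ± 0.13 (SE), adjusted p = 0.0174). *Stat2* had Log2FC -0.60 (adjusted p = 0.143), *Stat5a* -0.41, *Stat5b* -0.23 and *Stat6* -0.077, and *Stat4* was too low to test. The call of *Stat3* was lost without Tofacitinib replicate 2, without DMSO set 2 replicate 2, with DMSO set 1 as the only control, with the mitochondrial share and replicate number in the fit, and with the 9 samples fitted alone.

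The receptors and feedback inhibitors of the pathway that were called were also lower. Of 23 receptor genes for cytokines that use JAKs, 0 were called higher and 3 lower, and 0 and 6 under median-of-ratios scaling. Of all genes, 0.857% and 2.61% were called lower on the 2 scales. None of the 3 calls was kept without Tofacitinib replicate 1 or 2, without DMSO set 2 replicate 2, with either DMSO set alone or with the mitochondrial share and replicate number in the fit. Without DMSO set 2 replicate 1, where 2728 of 12714 genes were called in either direction, the numbers were 3 higher and 5 lower. The 3 called lower with every sample in the fit were *Il10ra*, the IL-10 receptor chain bound by JAK1, *Il13ra1*, part of the receptor for IL-4 and IL-13, and *Ifnar1*, a chain of the interferon receptor. *Il10ra* was at 3350, 3118 and 3506 with Tofacitinib against a lowest value of 4206, a median of 4848 and a highest of 6167 in DMSO (Log2FC -0.56 ± 0.15 (SE), adjusted p = 0.0158). *Ifnar1* was at 3199, 2899 and 2925 with Tofacitinib, while DMSO ranged from 3459 to 4866 with a median of 3631 (Log2FC -0.34 ± 0.11 (SE), adjusted p = 0.0398). The groups did not overlap in either. Of 18 feedback inhibitor genes, the 1 called was *Ptpn1*, a phosphatase that acts on JAK2 and TYK2, which was lower (Log2FC -0.40, adjusted p = 0.0401). It lost the call in the same settings, and without DMSO set 2 replicate 1 the list had 2 higher and 2 lower, in the fit that called 2728 genes. *Socs1*, an interferon-induced inhibitor of JAKs, was at 742, 811 and 940 with Tofacitinib against a lowest value of 618, a median of 2718 and a highest of 5735 in DMSO (Log2FC -1.29 ± 0.55 (SE), adjusted p = 0.0969). Its DMSO values fell far apart, with both replicates 3 at 618 and 754 and the other 4 at 2451 or more. *Socs3*, the inhibitor induced by STAT3, was at 29260, 26953 and 26326 against 30878 to 44201 (Log2FC -0.37, adjusted p = 0.0664), and was called under median-of-ratios scaling only (-0.54, adjusted p = 0.0396). *Cish*, *Usp18*, *Ptpn2* and *Ptpn6* had Log2FC of -0.22, -0.29, -0.015 and 0.12, and the SOCS and PIAS genes other than *Socs1* and *Socs3* lay between -0.19 and 0.55, none of them called. The direction of *Ptpn6*, *Socs6* and *Ptpn11* turned under the second scaling, at -0.043, -0.070 and -0.14.

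Transcription factor genes were called in both directions. *Irf8*, which directs the macrophage and dendritic cell fate and is induced by interferon gamma, was at 1894, 1611 and 2226 with Tofacitinib, while DMSO ranged from 3680 to 7541 with a median of 4478 (Log2FC -1.32 ± 0.31 (SE), adjusted p = 0.00793). The 3 Tofacitinib values were below all 6 DMSO values, and the Log2FC was -1.48 (adjusted p = 0.00398) under median-of-ratios scaling and -1.11 (adjusted p = 0.0714) with the mitochondrial share and replicate number in the fit. Of the 9 fits without 1 sample, the one without Tofacitinib replicate 2 lost the call (Log2FC -1.20, adjusted p = 0.158). Its upstream window is shown because STAT dimers bind motifs of the form TTCNNNGAA (GAS), which reads the same on both strands. It holds 2 matches, in capitals, while 7.02% of all windows and 6.07% of those of tested genes hold at least 1. Among genes called under both scalings, 13 of 133 windows of higher genes (9.77%) and 5 of 85 of lower genes (5.88%) do. No binding was measured here.
Irf8 (chr8:120736108-120736357, plus strand): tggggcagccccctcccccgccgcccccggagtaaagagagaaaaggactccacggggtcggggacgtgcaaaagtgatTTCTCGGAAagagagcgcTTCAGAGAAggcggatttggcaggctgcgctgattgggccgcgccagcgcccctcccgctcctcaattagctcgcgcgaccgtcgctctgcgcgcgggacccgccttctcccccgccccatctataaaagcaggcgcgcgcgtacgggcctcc

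*Irf1*, another interferon-induced IRF gene, with a GAS match of its own in the window, had Log2FC -0.48 (adjusted p = 0.0717) and was called lower under the second scaling only. Of 35 immediate-early transcription factor genes, 8 were called higher and 4 lower, and 4 and 5 under median-of-ratios scaling. Over all genes 9.02% were called higher and 0.857% lower, and 1.31% and 2.61% under the second scaling. *Atf3*, a bZIP factor known to restrain TLR-induced cytokine genes, was at 3749, 3553 and 4730 with Tofacitinib against a lowest value of 5695, a median of 6558 and a highest of 8642 in DMSO (Log2FC -0.75 ± 0.13 (SE), adjusted p = 4.17e-04). All 3 values lay below the DMSO range, and the call held under median-of-ratios scaling (Log2FC -0.92, adjusted p = 1.32e-05) and with the mitochondrial share and replicate number in the fit (-0.56, adjusted p = 1.18e-04), and not without Tofacitinib replicate 2 (-0.67, adjusted p = 0.0678). *Mafk*, a small Maf protein, *Jun*, a subunit of AP-1, and *Csrnp1* were the other 3 lower genes, with Log2FC -0.87, -0.75 and -0.52. *Jun* was at 1188, 909 and 1307 against 1187 to 3141, with 2 of the DMSO values (both replicates 3) within the Tofacitinib range. Higher on both scales were *Id1* and *Id3*, which block helix-loop-helix factors, *Egr2* and *Srf*. *Id3* was at 1529, 2193 and 1757 with Tofacitinib, while DMSO ranged from 579 to 1035 with a median of 853 (Log2FC 1.14 ± 0.24 (SE), adjusted p = 0.00366). *Id1* was at 101, 198 and 186 with Tofacitinib against a lowest value of 29, a median of 42 and a highest of 72 in DMSO (Log2FC 1.81 ± 0.47 (SE), adjusted p = 0.0144). *Myc* was called on the deposited scale only (Log2FC 0.78, and 0.61, adjusted p = 0.0858 on the second).

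As a group the NF-kB genes had a median Log2FC close to that of all genes. Of 28 subunit and feedback genes, 4 were called higher and 0 lower on the deposited scale, and 0 and 2 under median-of-ratios scaling. Their median Log2FC was 0.13 and -0.035. Over all genes 9.02% were called higher and 0.857% lower, and 1.31% and 2.61% under the second scaling. The inhibitor genes *Nfkbia* and *Tnfaip3*, both direct targets of NF-kB, had Log2FC -0.15 (adjusted p = 0.246) and -0.11 (adjusted p = 0.689). *Nfkbia* was at 32458, 32628 and 34517 with Tofacitinib and 32236 to 41142 with DMSO, so the 2 ranges overlapped. Among TLR4, TBK1 and IRF3 pathway genes 1 of 25 was called higher (0 under the second scaling, where 2 were lower).

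The lower genes with the largest differences included several outside these lists. *Amotl2*, an angiomotin family member of the Hippo pathway, was a low gene at 14, 7 and 2 with Tofacitinib, while DMSO ranged from 25 to 84 with a median of 40.5 (Log2FC -2.61 ± 0.46 (SE), adjusted p = 4.17e-04). The 3 Tofacitinib values were below all DMSO values, and the call held in all 9 fits without 1 sample, at Log2FC -2.69 (adjusted p = 0.0101) without Tofacitinib replicate 2. It was lost when the fit held the 9 samples alone (adjusted p = 0.0673). *Mfsd9*, of a family of membrane transporters, was at 26, 11 and 27 with Tofacitinib against a lowest value of 37, a median of 51.5 and a highest of 88 in DMSO (Log2FC -1.36 ± 0.25 (SE), adjusted p = 6.93e-04). *Arid5a*, an RNA-binding protein that stabilises *Il6* mRNA, was at 1683, 1075 and 1588 with Tofacitinib, while DMSO ranged from 2134 to 3490 with a median of 2662 (Log2FC -0.93 ± 0.19 (SE), adjusted p = 0.00278). *Vps37b*, a subunit of ESCRT-I, was at 359, 355 and 403 against 500 to 1127 (Log2FC -0.86, adjusted p = 0.00302), and *Mxd1*, a MAX partner that opposes MYC, at 1327, 1224 and 1232 against 1752 to 3103 (Log2FC -0.76, adjusted p = 0.00308). These 5 were also called under median-of-ratios scaling, with each DMSO set alone and with the mitochondrial share and replicate number in the fit, and the last 4 were lost without Tofacitinib replicate 2. *Hhex*, a homeobox factor, was at 70, 75 and 119 with Tofacitinib against a lowest value of 145, a median of 196 and a highest of 502 in DMSO (Log2FC -1.39 ± 0.34 (SE), adjusted p = 0.011), with DMSO set 2 replicate 2 far above the other DMSO samples. *Themis2*, a signalling adaptor of macrophages, and *Setdb2*, a methyltransferase gene that overlaps *Gm45935* so that their reads may be mixed, had Log2FC -0.99 and -1.05.

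Higher genes outside the lists included *Fkbpl*, which encodes an HSP90 co-chaperone, at 205, 272 and 191 with Tofacitinib, while DMSO ranged from 58 to 96 with a median of 74 (Log2FC 1.54 ± 0.31 (SE), adjusted p = 0.00225). *Rabggtb*, the beta subunit of the enzyme that attaches lipids to Rab proteins, was at 155, 179 and 150 with Tofacitinib against a lowest value of 44, a median of 55 and a highest of 99 in DMSO (Log2FC 1.45 ± 0.30 (SE), adjusted p = 0.00245). Both had all Tofacitinib values above all DMSO values, which the rule for naming the genes with the largest Log2FC required. *Odc1*, the first enzyme of polyamine synthesis, had Log2FC 1.28 (adjusted p = 0.0121). *Fkbpl* and *Rabggtb* were called in every setting but the one without Tofacitinib replicate 2 and, for *Rabggtb*, the fit of the 9 samples alone.

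Gene groups of general cell function had higher calls on the deposited scale and fewer on the second, as did all genes (9.02% and 1.31% called higher). Of 78 cytosolic ribosomal protein genes, 24 were called higher on the deposited scale and 0 under median-of-ratios scaling (median Log2FC 0.47 and 0.30). The numbers called higher were 13 and 1 of 38 for proteasome subunits, 11 and 0 of 81 for nuclear-encoded respiratory chain genes, 16 and 4 of 55 for translation initiation factors, and 8 and 1 of 27 for mRNA decay regulators. Of the 13 mitochondrially encoded genes, 6 were called on the deposited scale and 0 on the second, with a median Log2FC of 1.50 and 1.33. *ND5*, a subunit of respiratory complex I, was at 8403, 6999 and 2676 with Tofacitinib, while DMSO ranged from 704 to 3601 with a median of 1166 (Log2FC 1.99, adjusted p = 0.0351). The range in DMSO was wide, and DMSO set 2 replicate 1 lay above Tofacitinib replicate 3. None of these lists kept a call without Tofacitinib replicate 2.

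**Figure D4:**
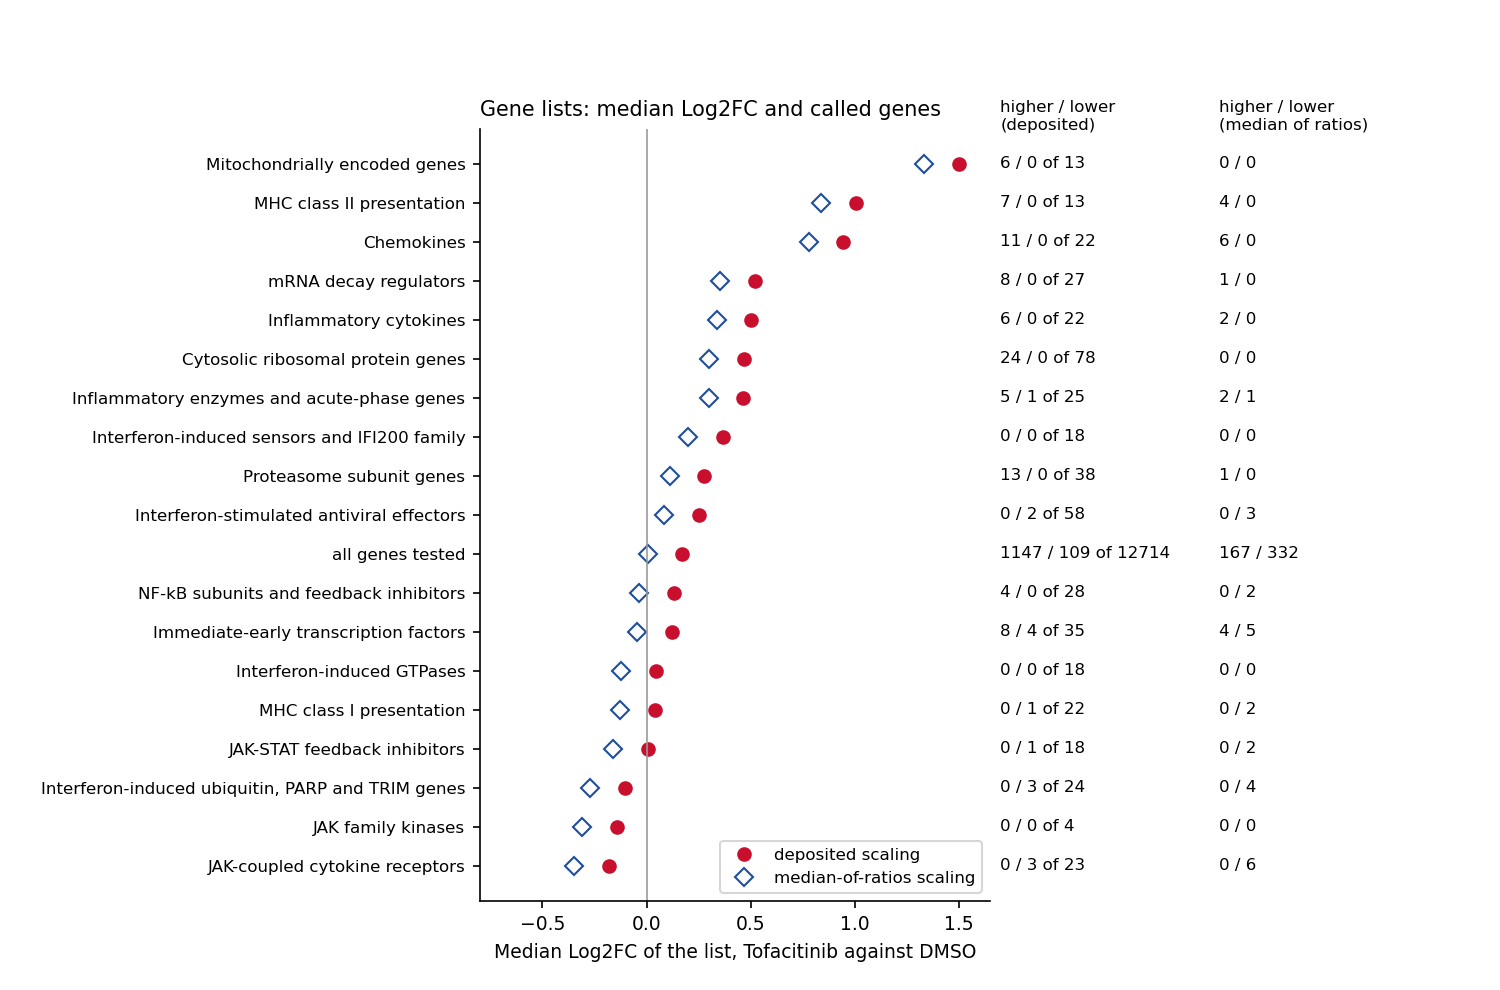
Points give the median Log2FC of Tofacitinib against DMSO over the tested genes of each list on the deposited scale (red) and under median-of-ratios scaling (open blue diamonds), and the columns give the numbers called higher and lower. Of the lists shown, MHC class II genes and chemokines lie furthest to the right of the nuclear-encoded lists on both scales, and JAK-coupled cytokine receptor genes furthest to the left. The list of 6 tested STAT genes, with lower medians of -0.45 and -0.62, is not shown.

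Against the mean of the 57 other CKIs, a comparison that uses no DMSO sample, 24 of 12714 genes were called (0.189%), 20 higher (0.157%) and 4 lower (0.0315%) with Tofacitinib. Of these, 18 higher and all 4 lower genes were also called against DMSO. Both comparisons use the same Tofacitinib samples, so they are not independent of each other. Under median-of-ratios scaling 9 were higher (0.0709%) and 12 lower (0.0945%). The higher genes included *Cxcl1* (Log2FC 1.13, adjusted p = 8.33e-07), *Cxcl3* (1.03, adjusted p = 7.02e-05), *Cxcl2* (0.72, adjusted p = 0.00202) and *Ptger2* (0.75, adjusted p = 1.31e-04). *Ccl22*, *Pdgfb*, *Ptgir*, *Ch25h*, *Gpr84*, *Siglece*, the caveolin gene *Cav1* and the glucose transporter gene *Slc2a1* were called as well. The 4 lower genes were *Amotl2* (Log2FC -1.54), *Mfsd9* (-0.99), *Mertk* (-0.60) and *Atf3* (-0.56). *Irf8* was not among them, at -0.37 (adjusted p = 0.513), nor was *Ifnb1*, at 0.71 (adjusted p = 0.367), nor *H2-Eb1*, at 0.80 (adjusted p = 0.182). Without Tofacitinib replicates 1, 2 or 3 the count was 13, 3 or 6. *Mertk* and *Mfsd9* had the lowest Log2FC against DMSO of all 58 CKIs, and *Ccl22*, *Il1a*, *Pdgfb* and *Gpr84* the highest.

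Of the 58 CKIs, 6 were designed against JAKs, and their concentrations were set separately, so compound and concentration cannot be told apart between them. Between Tofacitinib and Filgotinib, a CKI designated for JAK1, 1130 genes were called (8.89%), 1104 higher (8.68%) and 26 lower (0.204%) with Tofacitinib. Under median-of-ratios scaling they were 391 higher (3.08%) and 128 lower (1.01%). Without Filgotinib replicate 1 the count was 507, and without Tofacitinib replicate 2 it was 593. Interferon-stimulated genes were among those higher with Tofacitinib. On the deposited scale and the second the numbers higher were 9 and 2 of 58 antiviral effectors, 6 and 3 of 18 GTPases, 6 and 2 of 18 sensors and IFI200 genes, and 2 and 2 of 8 genes for CXCR3 ligands and other interferon-induced ligands. The median Log2FC of the sensors was 1.25 and 1.04 on the 2 scales, against 0.22 and 0.00973 for all genes. *Ccl5*, a chemokine induced by interferon and NF-kB, was at 13970, 12220 and 13219 with Tofacitinib and 5235, 5027 and 4831 with Filgotinib (Log2FC 1.38 ± 0.36, adjusted p = 0.00511, and 0.0301 under median-of-ratios scaling). *Mx1* was at 1708, 1916 and 2217 against 784, 687 and 489 (Log2FC 1.59, adjusted p = 0.0132), a difference that missed the threshold under the second scaling (adjusted p = 0.0525). *F3* was at 53, 52 and 71 against 22, 11 and 15 (Log2FC 1.85, adjusted p = 1.88e-04). In all 3 genes the groups did not overlap. *Cxcl1* and *Irf8* did not pass between the 2 compounds, with Log2FC 0.38 (95% interval -0.060 to 0.81) and 0.92 (0.22 to 1.61), intervals that are for 1 gene each, without adjustment for the number of genes.

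Between Tofacitinib and Pacritinib, a CKI designated for JAK2, limma called 0 genes (0.0%, while 542 had an unadjusted p under 0.05, and the fit without the filter on low genes called 247). The Log2FC of *Cxcl1* between them was 1.04 (95% interval 0.60 to 1.48) and that of *Irf8* -0.18 (-0.88 to 0.51). Set side by side against the same 6 DMSO samples, which the columns share, the Log2FC of *Cxcl1* was 1.53 for Tofacitinib, 1.16 for Filgotinib, 0.89 for BMS911543, 1.35 for Momelotinib, 0.49 for Pacritinib and 0.59 for Ruxolitinib. That of *Irf8* was -1.32, -2.23, -1.35, -1.39, -1.13 and -1.34 in the same order, and that of *Mx1* -0.13, -1.72, 0.13, -1.07, -0.37 and -0.60. Differences among the 6 other than those with Filgotinib and Pacritinib were not tested.

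**Figure D5:**
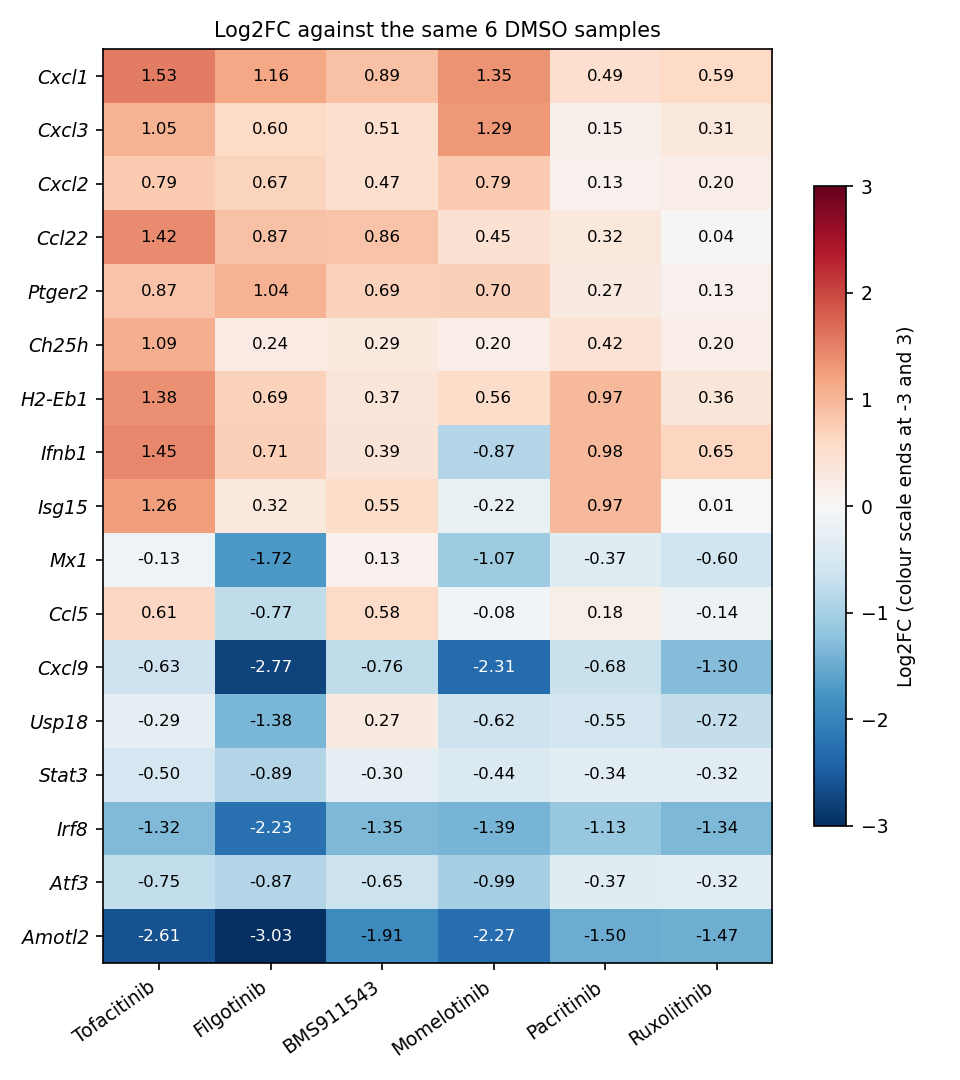
Each cell gives the Log2FC of 1 gene (rows) with 1 JAK-directed CKI (columns) against the same 6 DMSO samples, with blue for lower and red for higher. Irf8, Atf3, Stat3 and Amotl2 are below 0 in all 6 columns and Cxcl1 is above 0 in all 6, while Mx1, Cxcl9 and Usp18 are lowest with Filgotinib. CKIs not directed at JAKs are not shown.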

How the data were processed

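RNA-seq was made by the authors from polyadenylated RNA with a SMART-seq2 protocol that does not mark strand, so overlapping genes cannot be told apart. They aligned reads with TopHat2 2.1.1 to mm10, removed blacklisted regions with bedtools 2.29.2, counted exonic reads per gene in R, and brought the samples to a common scale with genes of little variation. The deposited values, rounded to whole numbers, have no fixed unit, are handled as a score and are called normalized read counts. The authors tested such values with DESeq2 without further normalization. Whole reads were not recovered for nearly all genes, so no count test was run.

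Each column was matched to its sample by name, and samples were grouped by their labels. limma 3.58.1 (R 4.3.3, moderated, two-sided, with variance trend) was fitted to log2(value + 1) for all 59 groups, over genes with a mean of at least 10, with Benjamini-Hochberg adjustment over 12714 genes. The Log2FC is thus on the log2(value + 1) scale and understates changes of low genes. The ± is its standard error, from the spread within all 59 groups, with n = 3 for each CKI and 6 for DMSO. Single values were compared by exact permutation tests over 84 splits. Scripts were tested on simulated data. Reads on genes per sample were estimated from the spacing that scaling and rounding leave, and lay between 10400000 and 13960000 in the 9 samples, so values near 10 carry a large counting error. Alternatives changed the pseudocount, filter, scaling, variance trend, samples in the fit, DMSO set, replicate block and fold threshold, or left out each sample. The fit with the mitochondrial share was chosen after seeing the data.

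The compared samples and gene lists were chosen with earlier results of these data known. The text names *Ifnb1*, the JAK, STAT and feedback genes, up to 5 called genes per list and direction, the 15 called genes per direction with the largest Log2FC whose values did not overlap with DMSO at a mean of 50 or more over the 9 samples, and up to 10 per direction also called against the other CKIs. *Adgre1*, *Cav1*, *Ccl2*, *Ccl3*, *Ccl4*, *Ccl5*, *Ccr2*, *Ccr7*, *Cd74*, *Ciita*, *Clec5a*, *Csf1r*, *Cx3cr1*, *Cxcl10*, *Cxcl2*, *Il10*, *Il12b*, *Il6*, *Irf1*, *Isg15*, *Mx1*, *Mxd1*, *Nfkbia*, *Odc1*, *Ptgs2*, *Rsad2*, *Stat4* and *Tnfaip3* fall outside this rule and were chosen after their values were seen. Some selected genes and lists are not reported here. Upstream sequences come from RefSeq (GRCm38.p6), in which 105 of 136 genes looked up had a window of 250 bases.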

Additional observations from a re-analysis of the deposited data

Results flagged for a closer look

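For each of 137 values the 6 DMSO samples were searched for 1 sample far from the other 5 by Dixon's test, and 7 were found. Chance alone marks about 1 in 20 groups, which is about as many. In 5 of the 7 the sample was DMSO set 2 replicate 1, the DMSO sample with the largest mitochondrial share. It held the highest *Ifnb1* value (262, next 129), the highest *Ccl3* value (12411, next 8207), the highest *Ptgir* value (105, next 73), the highest *Rabggtb* value (99, next 55) and the highest *ND5* value (3601, next 1776). In the other 2 it was DMSO set 2 replicate 2, with *Il13ra1* at 524 (next 381) and *Ifnar1* at 4866 (next 3931). For *Ifnb1* that sample lay among the Tofacitinib values, and for *Ptgir*, *Rabggtb*, *Il13ra1* and *Ifnar1* the groups stayed apart. No cause was tested.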

How the results depend on the processing

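Against 1256 genes called between Tofacitinib and DMSO, 499 were called under median-of-ratios scaling, 768 with no filter, 250 with a Log2FC of at least 1 in size, 162 and 111 with DMSO set 1 or set 2 alone, and 4 when the fit held the 9 samples alone (*Ch25h*, *Cxcl1*, *Fkbpl* and *Tnf*). Leaving out 1 sample gave 2 (without Tofacitinib replicate 2) to 2728 (without DMSO set 2 replicate 1). The pseudocounts of 0.5 and 10, no variance trend and a filter of 50 gave 1135 to 1289. Of the 91 called genes followed, 31 lost the call under median-of-ratios scaling, 87 in the fit of 9 samples, and 1 (*Cxcl1*) was called in every setting. Of 44 genes followed that were not called, 18 changed sign in some setting. Against the other 57 CKIs 24 genes became 346 with no filter, 4 with a Log2FC of at least 1 in size, and 3 to 13 without 1 Tofacitinib sample. Against Filgotinib 1130 became 519 under median-of-ratios scaling, 434 with the fold threshold and 507 to 1143 without 1 sample. Against Pacritinib 0 became 247 with no filter and 0 to 2 without 1 sample. The difference in mitochondrial share lay between 0.528 and 1.12 percentage points, and that in the total between 1151610 and 1589660, without 1 sample. The exact test of the share then missed the threshold without Tofacitinib replicate 1 (0.528) or 2 (0.741). That of the total did so without Tofacitinib replicate 1 (1175910) or 2 (1155180), DMSO set 1 replicate 1 (1354280) or 2 (1312010), or DMSO set 2 replicate 2 (1331130). The cause of these changes was not tested. Leaving out a sample leaves fewer values to compare, and the count against DMSO fell in some such fits and rose in others. Depth limits what can be seen in genes near 10 reads.

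A fit with a replicate block (the replicate number as a term) called 3044 genes against DMSO, 147 against the other CKIs, 1870 against Filgotinib, 2 against Pacritinib and 0 between the DMSO sets, and the difference in mitochondrial share stayed at 0.797 percentage points. With it 11 of 58 antiviral effectors were higher and 2 lower, 3 of 23 JAK-coupled receptors higher and 5 lower, and 2 of 18 feedback inhibitors higher and 3 lower. These counts stand beside the 3044 of 12714 genes called in either direction. Together with the mitochondrial share as a covariate, the replicate block gave 63, 68, 2192 and 4 genes in the first 4 comparisons. The deviations of Tofacitinib samples from their group mean correlated with those of the same-numbered DMSO samples of sets 1 and 2 at 0.33 and 0.49 for replicate 1, 0.10 and -0.016 for replicate 2, and 0.25 and 0.25 for replicate 3. Those of the 2 DMSO sets correlated at 0.51, 0.24 and 0.32 for the 3 numbers, and those of Tofacitinib with differently numbered DMSO samples at -0.21, -0.011 and -0.13 on average. Since replicate 2 with set 2 was not over 0.1, and the sources do not say that a number marks a shared animal or day, the numbers were not taken to pair the samples.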

Other observations

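Further gene groups gave the following values, beside 9.02% of all genes called higher on the deposited scale and 1.31% on the second. *Adm*, which encodes the vasodilator peptide adrenomedullin, was at 49, 57 and 29 with Tofacitinib against a lowest value of 6, a median of 11 and a highest of 18 in DMSO (Log2FC 1.88, adjusted p = 0.0156, and 1.72, adjusted p = 0.0311 under median-of-ratios scaling). It was 1 of 4 of 30 glycolysis and hypoxia genes called higher, and the only 1 of them that held on the second scale. Of 16 costimulatory and checkpoint genes 2 were called higher, and *Havcr2*, the receptor TIM-3, held on both scales (Log2FC 1.23 and 1.06). In the BCL2 family 4 of 17 were called higher on the deposited scale and 0 on the second, among them the survival genes *Mcl1* (Log2FC 0.57) and *Bcl2l1* (Log2FC 0.40). Of 43 lysosome and autophagy genes 0 were called on the deposited scale, and 2 were called lower on the second, where 2.61% of all genes were called lower. All of the calls on the deposited scale were lost without Tofacitinib replicate 2.

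By the number of genes called against DMSO, Tofacitinib ranked 11 among the 58 CKIs, all set against the same 6 samples.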
